A study of Saccharomyces cerevisiae with 8 samples.

Results

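The comparison of sub1Δ with wild-type budding yeast in the absence of DNA damage rested on the 4 arrays, of 8 in the series, that the labels mark as without 4NQO. The study deleted SUB1 in the laboratory strain YPH500 and compared the RNA of both strains before and after the DNA-damaging compound 4NQO. Both strains of the untreated comparison were grown in YPD, a rich glucose medium, at 30 °C to an OD600 of 1, and RNA was taken at time 0 without any compound. Total RNA of sub1Δ and of wild type was labelled with different dyes and hybridised together to spotted open reading frame arrays, so that each array gives the log2 ratio of sub1Δ over wild type for every spot. The 4 untreated arrays came from 2 experiments that the submitters call independent, each hybridised once with sub1Δ in Cy5 and once, as a dye swap, with sub1Δ in Cy3. The labels do not say whether sub1Δ was 1 clone or which marker replaced the gene. Both arrays of a swap hold the same RNA, so their mean was 1 replicate and n = 2 experiments throughout. Nothing else says that the 2 experiments were separate cultures, so p-values measure only the spread between experiments. In the main fit this spread was estimated from the untreated and the 4NQO experiments together, where both had values.

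Sub1 is a conserved nuclear protein related to the human coactivator PC4. It binds single-stranded DNA and is found with RNA polymerase II at promoters and along genes, where genetic work in yeast ties it to initiation, elongation and the formation of mRNA 3′ ends. It has also been tied to RNA polymerase III genes and to resistance against oxidative DNA damage. The comparison asks which transcripts differ between sub1Δ and wild type in growing cells that no damaging compound has reached.

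SUB1 itself had no spot annotated to it alone, so the loss of its transcript was not measured here. Of the 3 genes on either side of it, CCS1, the copper chaperone of superoxide dismutase, was the only one tested. CCS1 ratios were 0.63 and 0.73 on the arrays of experiment 1 and -0.16 and 0.03 on those of experiment 2, with sub1Δ in Cy5 given first in each pair here and below. Their mean was 0.31 ± 0.53 (SD, n = 2 experiments), which did not pass the test (limma, adjusted p = 0.969). ARG80, a regulator of arginine genes on the other side, had 1 value of 0.56.

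A log2 ratio was present for 4557 to 5697 of the 6216 spots on an untreated array, and 3457 features (genes or unnamed spots) had a value on all 4, 1881 of them with a gene name. Only these features were tested, and the small number of arrays limits the precision. After turning every array to sub1Δ over wild type, the array medians lay between -0.21 and 0.01. Across the 3457 features the swap arrays of experiment 1 correlated with a Pearson r of 0.25 (Spearman 0.28), those of experiment 2 with -0.17 (Spearman 0.06). Arrays of different experiments with the same dye on sub1Δ correlated with 0.22 and 0.29, and those with opposite dyes with -0.11 and -0.14. The ratio that follows the strain, the mean of a swap, correlated between experiments with r = 0.14, whereas the part that follows the dye, the difference within a swap divided by 2, correlated with r = 0.41. These are descriptions over features that share the same arrays. With the ratios turned by the dye labels, the dye part was the one that recurred more closely between the experiments. If the swaps had already been turned before deposit, these parts would exchange names and the r of 0.41 would belong to the strain ratio. Over the 1654 features complete on all 8 arrays, the strain ratio correlated between experiments with r = 0.15 in untreated cells and r = 0.53 after 4NQO. The mean squared spread between experiments over these features was 0.72 in untreated cells and 1.14 after 4NQO.

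**Figure D1:**
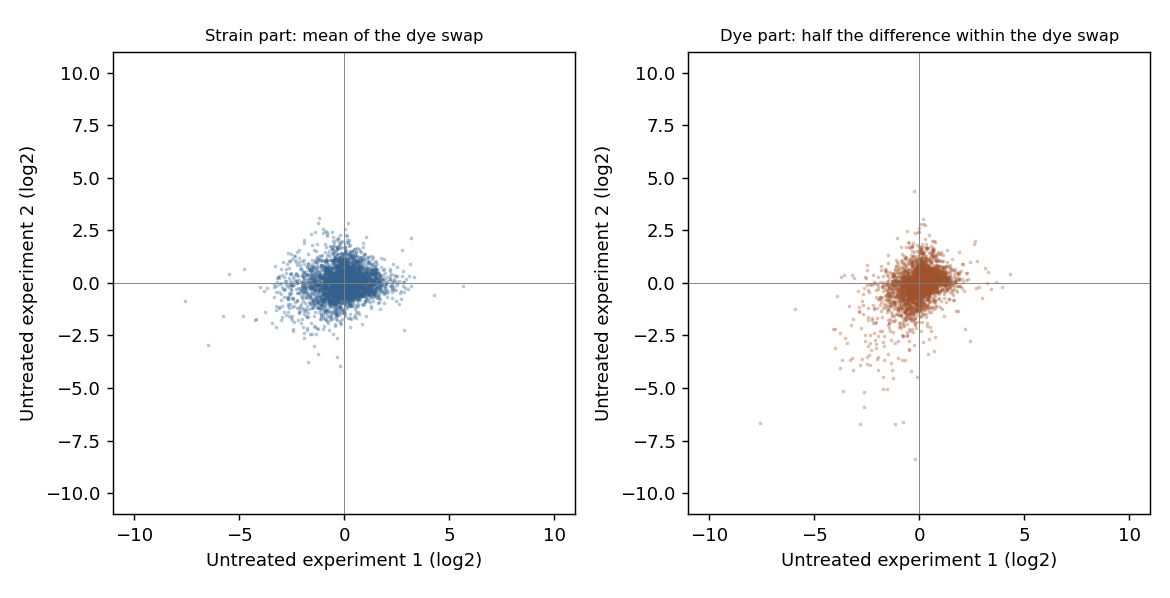
Each point is 1 of 3457 features in untreated cells, with its value in experiment 1 on the horizontal axis and in experiment 2 on the vertical axis, both in log2 units; the left panel shows the strain ratio (sub1Δ over wild type, mean of a dye swap) and the right panel the dye part of the same swap. The strain ratios form a round cloud (r = 0.14), and the dye parts run along the diagonal (r = 0.41), most visibly among the low values.

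Almost no feature passed the test for a difference between untreated sub1Δ and wild-type cells. In the limma fit that shares its estimate of the spread with the 4NQO experiments, 1 of 3457 features (0.0289%) passed an adjusted p of 0.05, and it was lower in sub1Δ. It is a spot without a gene name in the annotation, 46.1.2, named here after its values were seen. Its ratios were 1.10 and -14.10 in experiment 1 and 3.74 and -9.62 in experiment 2, a mean of -4.72 ± 2.52 (SD, n = 2 experiments; limma adjusted p = 0.0112). Both arrays with sub1Δ in Cy5 were above 0 and both with sub1Δ in Cy3 far below it. With the ratios turned by the dye labels, its sign thus followed the dye and not the strain. Its mean lay below 0 because the readings with sub1Δ in Cy3 were the larger in size. No feature that carries a gene name passed. At an unadjusted p of 0.05 the fit gave 198 features, 36 higher and 162 lower in sub1Δ, where 172.85 would be expected if no feature differed. Leaving out untreated experiment 1 gave 0 of 1870 testable features (24 at an unadjusted p of 0.05), and leaving out untreated experiment 2 gave 4. With each array centred on its median, 0 passed (152 unadjusted), and if all dye-swapped arrays had already been turned before deposit, 26 of the 37 features named below would change sign.

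When the untreated experiments were fitted alone, without the 4NQO arrays, 42 of 3457 features (1.21%) passed, 4 higher and 38 lower in sub1Δ, and 19 of the 42 carried a gene name. Leaving out either 4NQO experiment from the shared fit was no separate check, since a single 4NQO experiment adds nothing to the estimated spread. The fit then becomes that of untreated experiments alone. With the arrays centred on their medians, the fit of untreated experiments alone also gave 0 (180 unadjusted). Only 18 of the 42 kept 1 sign over the 4 arrays. In experiment 2, 23 of the 42 (54.8%) had opposite signs on the arrays of the swap, against 43.5% of all features tested. Experiment 1 went the other way, with 3 of the 42 of opposite sign against 38.2% of all features tested. A reading beyond 5 log2 units on some array was found for 16 of the 42 (38.1%), against 1.53% of all features tested. Readings that far from 0 were thus more common among the passing features than among all those tested. The test itself favours features with a large mean ratio, so this share is partly set by the selection. Across all 3457 features the mean ratio ranged from -4.72 to 2.77, with quartiles of -0.41 and 0.41, and 676 features (19.6%) kept 1 sign on all 4 arrays, 357 above 0 and 319 below. Between the experiments, 922 features were above 0 in both, 965 below 0 in both and 1570 (45.4%) of opposite sign.

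The ratio also varied with the place of a spot on the array, as given by the third of the numbers in its identifier. At position 1 the median ratio was -0.60 in experiment 1 and -0.05 in experiment 2, against -0.0096 in experiment 1 and -0.0048 in experiment 2 over all spots. With the untreated experiments fitted alone, 15 of the 403 spots tested there passed (3.72%), against 46 of 3517 (1.31%) over all positions. Position 1 holds SHE3, TDA8 and CHS3 among the genes described below as lower, and both spots of REI1. Among the named genes that passed in that fit it holds SHE3, SRO77, COQ1 and SEC18. Of genes described later with their lists, it also holds TFC1, ROX3, PKC1, TPS1, PEP1, GIP1 and LYS2, with means below 0, and CDC19, with a mean above 0. By their systematic names, all of these genes lie on chromosomes I and II. A shift with place on the array and a shift with chromosome therefore cannot be told apart here. The part of position in these ratios was examined only by centring each position of each array on its median, which removes either kind of shift. Centring left 21 features passing in the fit of untreated experiments alone. In the shared limma fit it left 0 (184 at an unadjusted p of 0.05, smallest adjusted p 0.0573).

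**Figure D2:**
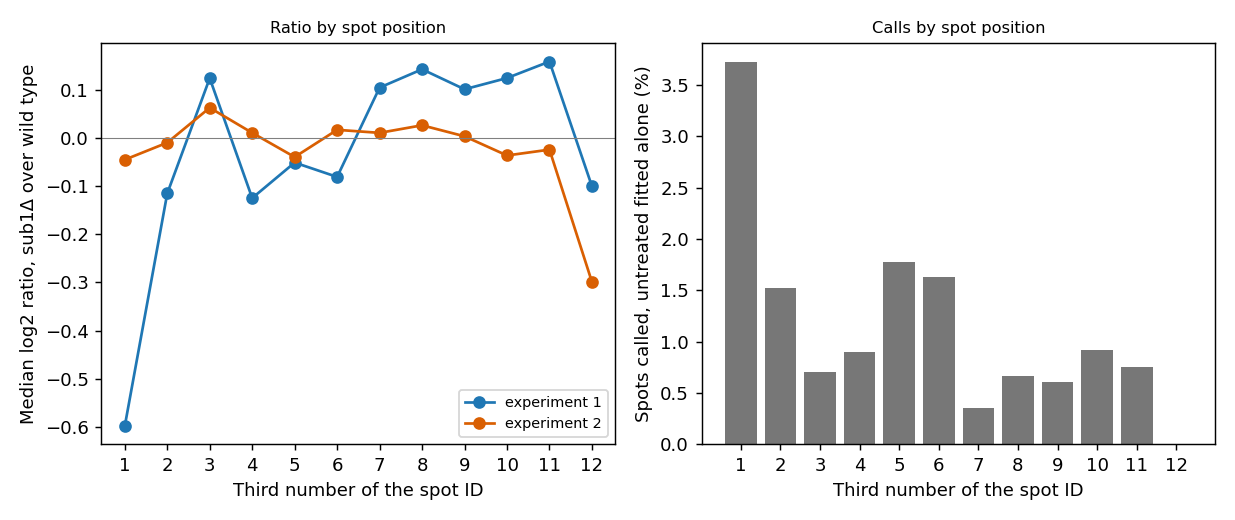
The horizontal axis is the third number of the spot identifier, 1 to 12. The left panel shows the median log2 ratio of sub1Δ over wild type in each experiment and the right panel the percentage of tested spots that passed with untreated experiments fitted alone; position 1 stands out with -0.60 in experiment 1 and 3.72%.

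Named genes that kept 1 sign over the 4 untreated arrays were ranked by p, and the first 12 in each direction are described here, most of them array by array. Their shared sign over the arrays was thus set by this rule. None of the 24 passed the shared fit, with adjusted p between 0.328 and 0.839 for the 12 above 0 and between 0.216 and 0.455 for the 12 below. In the fit of untreated experiments alone, 1 of the 12 above 0 and 6 of the 12 below passed.

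ANB1, the translation factor eIF5A form that wild-type yeast makes when oxygen is scarce, had ratios of 2.72 and 3.60 in experiment 1 and 0.40 and 1.42 in experiment 2. All 4 arrays were above 0, and those of experiment 1 were higher than those of experiment 2. The mean was 2.03 ± 1.59, a 4.10-fold higher level in sub1Δ (SD, n = 2 experiments; limma adjusted p = 0.328 in the shared fit and 0.0487 with untreated experiments alone). ANB1 was the only one of the 12 that passed in the fit of untreated experiments alone. Its close relative HYP2, made in air, can hybridise to the same probe DNA, so the transcripts cannot be told apart here. The same holds for SSA2 with SSA1, RPL8B with RPL8A and other gene pairs of nearly the same sequence.

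Both Hsp70 chaperones in the group were, like all its genes, above 0 in both experiments by the rule that picked them. SSC1, the main Hsp70 of the mitochondrial matrix, read 0.62 and 2.90 in experiment 1 and 0.47 and 1.88 in experiment 2, a mean of 1.47 ± 0.41 (SD, n = 2 experiments; limma adjusted p = 0.693). SSA2, a cytosolic Hsp70, read 2.74 and 2.25 in experiment 1 and 1.06 and 0.49 in experiment 2, a mean of 1.64 ± 1.21. For SSC1 the arrays with sub1Δ in Cy3 were the higher ones in both experiments, and for SSA2 experiment 1 lay above experiment 2.

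The other 9 genes above 0 had varied roles. BAT1, the mitochondrial aminotransferase of branched-chain amino acids, had the most even readings, 1.45 and 1.20 in experiment 1 and 1.05 and 1.26 in experiment 2. Its mean of 1.24 ± 0.12 corresponds to a 2.36-fold higher level, and all 4 arrays lay close together (SD, n = 2 experiments; limma adjusted p = 0.839). COX5A, the cytochrome c oxidase subunit used in air, read 1.82, 1.35, 0.69 and 1.12, with experiment 1 the higher. BGL2, a glucanase of the cell wall, read 2.26 and 3.96 in experiment 1 but 0.31 and 0.32 in experiment 2, so its mean of 1.71 ± 1.97 came mostly from experiment 1. OLE1, the fatty acid desaturase, had the same pattern, with 2.38 and 2.62 in experiment 1 and 0.44 and 0.18 in experiment 2. RPL8B, a protein of the large ribosomal subunit, read 1.53 and 4.15 in experiment 1 and 0.01 and 0.11 in experiment 2, the last of which are close to 0. PMT4, a protein O-mannosyltransferase, WTM1, a nuclear repressor, and PIR1, a cell wall protein, had means of 1.30 ± 0.12, 1.30 ± 0.33 and 1.28 ± 0.85. The PMT4 arrays lay further apart than its SD between experiments shows, at 1.84 and 0.93 in experiment 1 and 0.29 and 2.14 in experiment 2. GRE1, a hydrophilin made under osmotic stress, read 1.12, 0.96 and 1.04 on 3 arrays and 3.34 on the swapped array of experiment 2, a mean of 1.62 ± 0.81.

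The gene with the smallest p below 0 was YHR022C, an open reading frame without an assigned role here. It read -2.47 and -2.35 in experiment 1 and -1.72 and -2.86 in experiment 2, so all 4 arrays were far below 0. Its mean of -2.35 ± 0.09 corresponds to a 5.09-fold lower level in sub1Δ (SD, n = 2 experiments; limma adjusted p = 0.216 in the shared fit and 0.0151 with untreated experiments alone). YGL260W, also without an assigned role here, read -2.47, -2.36, -0.96 and -3.38, a mean of -2.30 ± 0.17 (limma adjusted p = 0.216, and 0.0190 alone). In this gene the swapped array of experiment 2 was the lowest and the other array of that experiment the highest. BLI1, a subunit of the BLOC-1 complex of endosomes, read -2.93 and -2.59 in experiment 1 and -2.22 and -0.87 in experiment 2, a mean of -2.15 ± 0.86 (limma adjusted p = 0.258, and 0.0320 alone).

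HSP12, a small membrane-associated stress protein and a classical target of the stress activators Msn2 and Msn4, read -2.81 and -2.21 in experiment 1 and -3.34 and -0.04 in experiment 2. Of its 4 arrays 3 were well below 0, while the swapped array of experiment 2 was close to it. The mean was -2.10 ± 0.58, a 4.28-fold lower level in sub1Δ (SD, n = 2 experiments; limma adjusted p = 0.258 in the shared fit and 0.0354 with untreated experiments alone). SLM3, an enzyme that modifies mitochondrial tRNAs, had the same low and near-0 pair in experiment 2, with readings of -1.92, -2.47, -3.25 and -0.30. SHE3, the adaptor that carries ASH1 mRNA into the bud, read -1.18, -1.69, -0.04 and -5.99, so that its mean of -2.22 ± 1.11 owed most to the swapped array of experiment 2. Both genes passed with untreated experiments alone (limma adjusted p = 0.0487 for SLM3 and 0.0273 for SHE3). The remaining genes below 0 did not pass either fit. They were TDA8, a small protein without a known role, PUL4, a zinc cluster transcription factor, CHS3, the chitin synthase of the bud neck ring, MPS2, a membrane protein of the spindle pole body, REI1, a late factor of the large ribosomal subunit, and CDC8, thymidylate kinase. Their means lay between -1.94 and -1.72, and for TDA8, PUL4 and REI1 the swapped array of experiment 2 was the lowest.

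**Figure D3:**
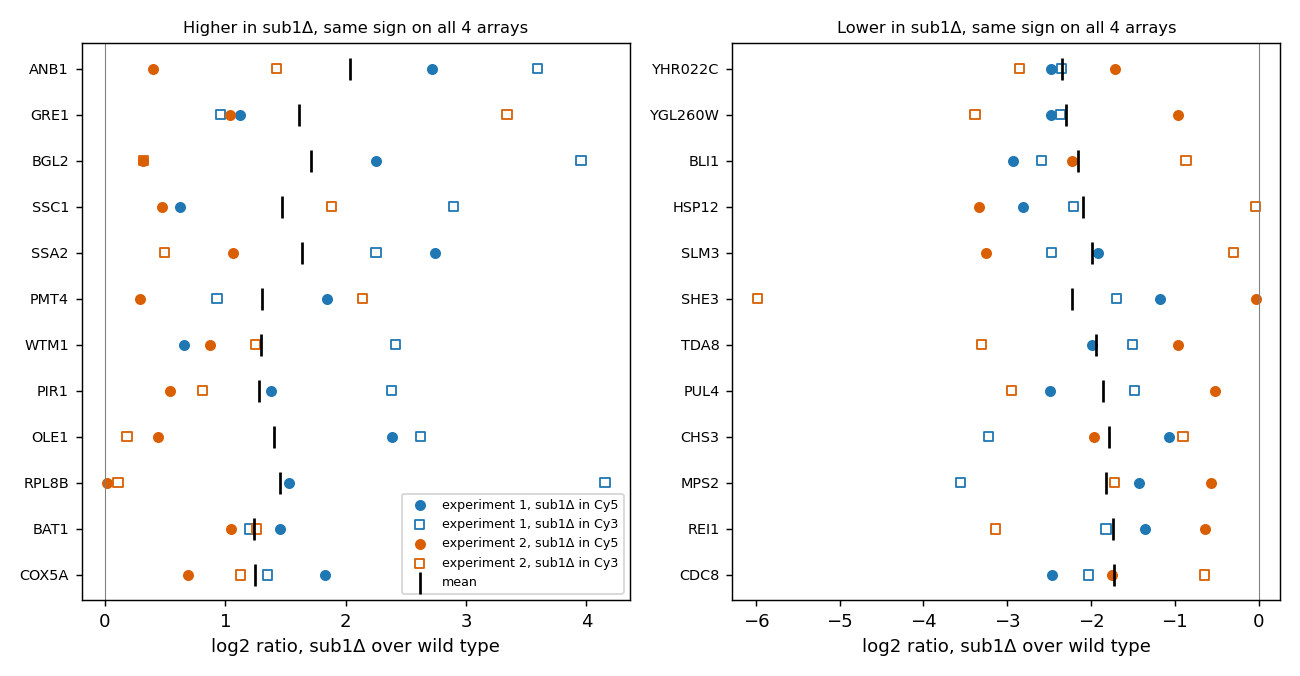
Log2 ratios of sub1Δ over wild type on each of the 4 untreated arrays, for the 12 named genes of smallest p above 0 (left) and the 12 below 0 (right) among those with 1 sign on all arrays; blue is experiment 1, orange experiment 2, filled circles have sub1Δ in Cy5, open squares have sub1Δ in Cy3, and the bar is the mean. BAT1 and YHR022C have closely placed arrays, while BGL2, OLE1 and RPL8B lie near 0 in experiment 2 and SHE3 rests on 1 array at -5.99.

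The other 12 named genes that passed with untreated experiments alone had arrays of opposite sign, and 11 were below 0. SEM1, a small subunit of the proteasome lid, read -1.63 and -13.50 in experiment 1 and 0.36 and -2.11 in experiment 2. CUS2, a splicing factor of the U2 particle, read -5.53 and -4.13 in experiment 1 and 1.65 and -4.79 in experiment 2. DAL80, a GATA repressor of nitrogen catabolism genes, read -1.67 and -2.13 in experiment 1 and 5.74 and -10.98 in experiment 2. Each of the 3 was above 0 on the unswapped array of experiment 2 and below 0 on the others. COQ1, which makes the side chain of ubiquinone, read -3.43, -3.08, -2.66 and 0.09. SRO77 and SEC18, both of the secretory pathway, had means of -2.67 ± 1.10 and -2.02 ± 0.90. In COQ1, SRO77 and SEC18 the swapped array of experiment 2 was above 0 and the other 3 arrays were between -4.66 and -2.53. RBL2, a tubulin folding cofactor, was the 1 gene of the 12 above 0, with 3.65 and 7.71 in experiment 1 and 0.11 and -0.41 in experiment 2. YIL060W, without an assigned role here, PHS1, a dehydratase of very long chain fatty acid synthesis, ATG5, part of the autophagy conjugation system, NEW1, an ATPase of translation, and VAM10, a vacuole gene, completed the group, with means between -3.69 and -2.03. VAM10, YHR022C, REI1 and YIL060W each overlap another annotated gene (VPS5, ECM12, SLM6 and YIL059C), and probe DNA of this kind reads both strands.

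Gene groups were described by 38 lists, of which 33 had at least 5 genes tested. No member of any list passed the shared fit. The median of all tested features was 0.02 (26.7% of them above 0 in both experiments and 27.9% below 0 in both), and it became 0.12 when each array was centred on its median, so a list moves up by about that difference under centring. The experiments' medians had the same sign in 16 of the 33 lists. Taking all dye-swapped arrays as already turned before deposit changed the sign of 27 of the 33 medians.

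Chaperone genes lay mostly above 0, with none passing the test. Among 28 heat shock proteins and chaperones, 16 were above 0 in both experiments and 2 below in both, with a median of 0.46 (0.64 in experiment 1 and 0.10 in experiment 2). Beside SSC1 and SSA2, the genes of smallest p were KAR2, the Hsp70 of the endoplasmic reticulum (1.41 ± 1.95), CPR3, a mitochondrial cyclophilin (1.11 ± 1.05), and HSP32. HSP32, of the Hsp31 family, went against the group, with -1.52, -1.27, -1.24 and -1.50 on the 4 arrays and a mean of -1.39 ± 0.02 (limma adjusted p = 0.725). Its readings were the tightest of the list.

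Amino acid biosynthesis differed between the experiments. Of 31 genes, 28 (90.3%) were above 0 in experiment 2 but 15 (48.4%) in experiment 1, against 49.8% of all features in experiment 2 and 49.0% in experiment 1, and the median of the list was 0.96 in experiment 2 and -0.02 in experiment 1. Over both experiments 15 genes were above 0 in both and 3 below in both, with a median of 0.56. Enzymes of the branched-chain pathway had the smallest p. LEU1, the isopropylmalate isomerase, read 0.15 and 1.35 in experiment 1 and 0.90 and 1.41 in experiment 2. LEU4, the isopropylmalate synthase, read 0.60 and 0.59 in experiment 1 and 1.51 and 1.06 in experiment 2. ILV2, the acetolactate synthase, read 0.45, 0.59, 0.63 and 1.51. Together with BAT1, these genes were above 0 on every untreated array, and none passed (limma adjusted p between 0.839 and 0.943). SER1, of serine synthesis, had a mean of 0.82 ± 1.07.

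**Figure D4:**
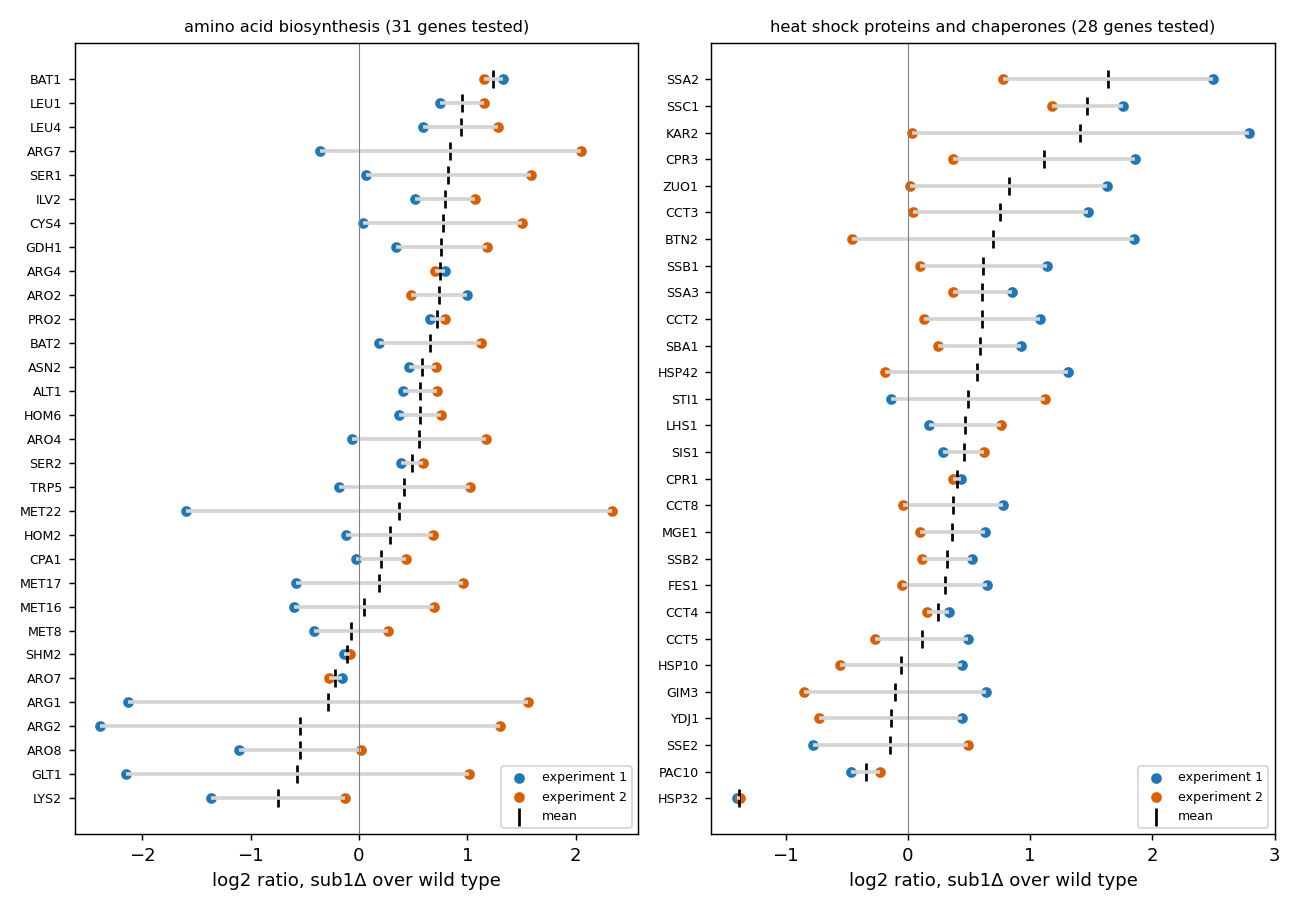
Log2 ratio of sub1Δ over wild type for the tested genes of amino acid biosynthesis (31, left) and of heat shock proteins and chaperones (28, right), with experiment 1 in blue, experiment 2 in orange and the mean as a bar. In the left panel experiment 2 lies above experiment 1 for most genes and 28 of its points are above 0; in the right panel experiment 1 is the higher for most.

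Sugar, lipid and nucleotide metabolism had medians of similar size. For 18 genes of glycolysis, fermentation and hexose transport, 11 were above 0 in both experiments and 1 below in both, with a median of 0.44. PFK1, the phosphofructokinase subunit, CDC19, pyruvate kinase, TDH1, glyceraldehyde-phosphate dehydrogenase, and HXK2, hexokinase, had means of 1.19 ± 1.39, 0.83 ± 0.74, 0.91 ± 1.29 and 1.17 ± 1.55, and each was higher in experiment 1 than in experiment 2. HXT8, a minor hexose transporter, lay the other way at -1.60 ± 0.69. All 11 ergosterol synthesis genes tested were above 0 in experiment 2 and 8 of them in experiment 1, with a median of 0.37. NCP1, the reductase that serves the sterol cytochromes, had a mean of 1.14 ± 0.29, with the array of sub1Δ in Cy3 the higher in both experiments. Of 26 genes of fatty acid and phospholipid synthesis, 12 were above 0 in both experiments and 7 below in both, and OPI3, a methyltransferase of phosphatidylcholine synthesis, was at -1.62 ± 1.39. The 17 purine, pyrimidine and IMP dehydrogenase genes had a median of 0.48, with 6 above 0 in both and 1 below in both. URA1, the dihydroorotate dehydrogenase, read 1.12, 1.80, 0.26 and 1.04.

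Respiration genes split between both sides. Of 42 genes of the TCA cycle and respiration, 16 were above 0 in both experiments and 10 below in both, with a median of 0.30 (0.59 in experiment 1 and -0.13 in experiment 2). COX8, a small subunit of cytochrome c oxidase, had a mean of 1.34 ± 2.23. COQ6, a hydroxylase of ubiquinone synthesis, had a mean of -2.08 ± 2.64 that rested on 1 reading of -8.11. HAP5, a subunit of the activator of respiratory genes, was at -1.31 ± 0.63.

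Genes of translation showed no common direction. Cytosolic ribosomal protein genes numbered 47, with 11 above 0 in both experiments and 18 below in both, and a median of -0.08 that became 0.02 with the arrays centred and 0.09 with spot positions centred. RPL39, a small protein of the large subunit, read -1.01, -0.83, -0.98 and -1.22, and so lay below 0 at nearly the same value on all 4 arrays (mean -1.01 ± 0.13; limma adjusted p = 0.943). For 30 mitochondrial ribosomal protein genes the median was 0.02, which became -0.02 with spot blocks centred. Ribosome biogenesis genes had a median of 0.07 over 58 genes, 0.27 in experiment 1 and -0.25 in experiment 2. Of 24 translation factors, 11 were above 0 in both experiments and 3 below in both, with a median of 0.31. Of 13 aminoacyl-tRNA synthetases, 12 had a mean above 0, with a median of 0.48, and 5 were above 0 in both experiments. ALA1, the alanine enzyme, had the largest mean of them, 1.70 ± 1.57, from a reading of 6.00 on 1 array.

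The transcription machinery with which Sub1 is found had medians close to 0 over both experiments. Medians were -0.10 for 20 genes of RNA polymerase II and the general transcription factors, -0.13 for 17 genes of RNA polymerases I and III, -0.11 for 14 mediator and SAGA coactivator genes and -0.10 for 11 genes of pre-mRNA 3′ end processing and termination, and each of these 4 changed sign under at least 1 of the 3 centrings tried (by array, spot block or spot position). The experiments often differed in sign, with experiment 1 given first. Medians were 0.29 and -0.26 for the RNA polymerase II list, -0.26 and 0.14 for mediator and SAGA, and -0.31 and 0.17 for 3′ end processing. For RNA polymerases I and III they were -0.17 and -0.15. RPO21, the largest subunit of RNA polymerase II, was at 0.74 ± 0.90. CTK1 and CTK3, of the kinase that phosphorylates its tail, were at -0.68 ± 0.10 and -0.66 ± 0.46. TFC1, a subunit of the RNA polymerase III factor TFIIIC, was below 0 on all 4 arrays, at -1.63, -2.07, -1.47 and -0.43 (mean -1.40 ± 0.63; limma adjusted p = 0.695). ROX3, a mediator subunit, was below 0 on all 4 as well, at -1.29 ± 0.50.

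Stress genes lay on both sides of 0. Among 20 general stress genes and Msn2-Msn4 targets, 6 were above 0 in both experiments and 7 below in both, with HSP12 below and GRE1 above 0 on all 4 arrays. OM45, a mitochondrial outer membrane protein, was at -2.11 ± 2.69 with 1 reading of -6.42. The 7 trehalose and glycogen genes had a median of -0.65, with -0.44 in experiment 1 and -0.12 in experiment 2. It became -0.26 with spot positions centred. TPS1 and TPS2, which make trehalose, read -1.65, -2.19, -0.99 and -0.06, and -2.47, -2.11, -1.14 and 0.59. Both were lower in experiment 1, and the swapped array of experiment 2 was the highest for both. The 18 genes of oxidative stress defence had a median of 0.07, and YHB1, the flavohaemoglobin, was at 1.05 ± 1.73.

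DNA repair genes lay mostly below 0 and genes induced by DNA damage on both sides of it, with none passing the test. Of 13 repair genes tested, 8 were below 0 in both experiments and 2 above in both, with a median of -0.30. DDC1, of the checkpoint clamp, and RAD50, of the break-processing complex, had means of -1.73 ± 1.36 and -0.94 ± 0.20. DDC1 and RAD50 were above 0 on an array with sub1Δ in Cy5 and below 0 on both with sub1Δ in Cy3. Of 7 damage-induced genes tested, 3 were above 0 in both experiments and 2 below in both, with a median of 0.49 (0.68 in experiment 1 and 0.08 in experiment 2). RAD7, of nucleotide excision repair and in both lists, was at -0.87 ± 0.58. RNR4 and RNR2, both small subunits of ribonucleotide reductase, were at 0.92 ± 0.77 and 0.66 ± 0.17. Polyubiquitin, UBI4, was at 1.21 ± 2.29, with 2.04 and 3.62 in experiment 1 and -0.55 and -0.27 in experiment 2.

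Among 9 meiosis and sporulation genes, which growing cells keep low, 6 were below 0 in both experiments and none above in both, and the median was -0.74. GIP1, IME4, MER1, SPO19 and ZIP2 had means between -1.58 and -0.74. SPO19 read 0.02, -1.54, 0.11 and -1.61, with both arrays of sub1Δ in Cy5 near 0. Of 26 genes of vacuolar sorting, endosome and autophagy, 11 were below 0 in both experiments and 6 above in both, and BLI1, ATG5 and PEP1, the sorting receptor of carboxypeptidase Y (-1.32 ± 0.52), had the smallest p. Drug efflux genes had a median of 0.21 over 13 genes, and AQR1, a transporter of the plasma membrane, read -1.99, -2.25, -1.15 and -1.52 (mean -1.73 ± 0.56; limma adjusted p = 0.479).

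**Figure D5:**
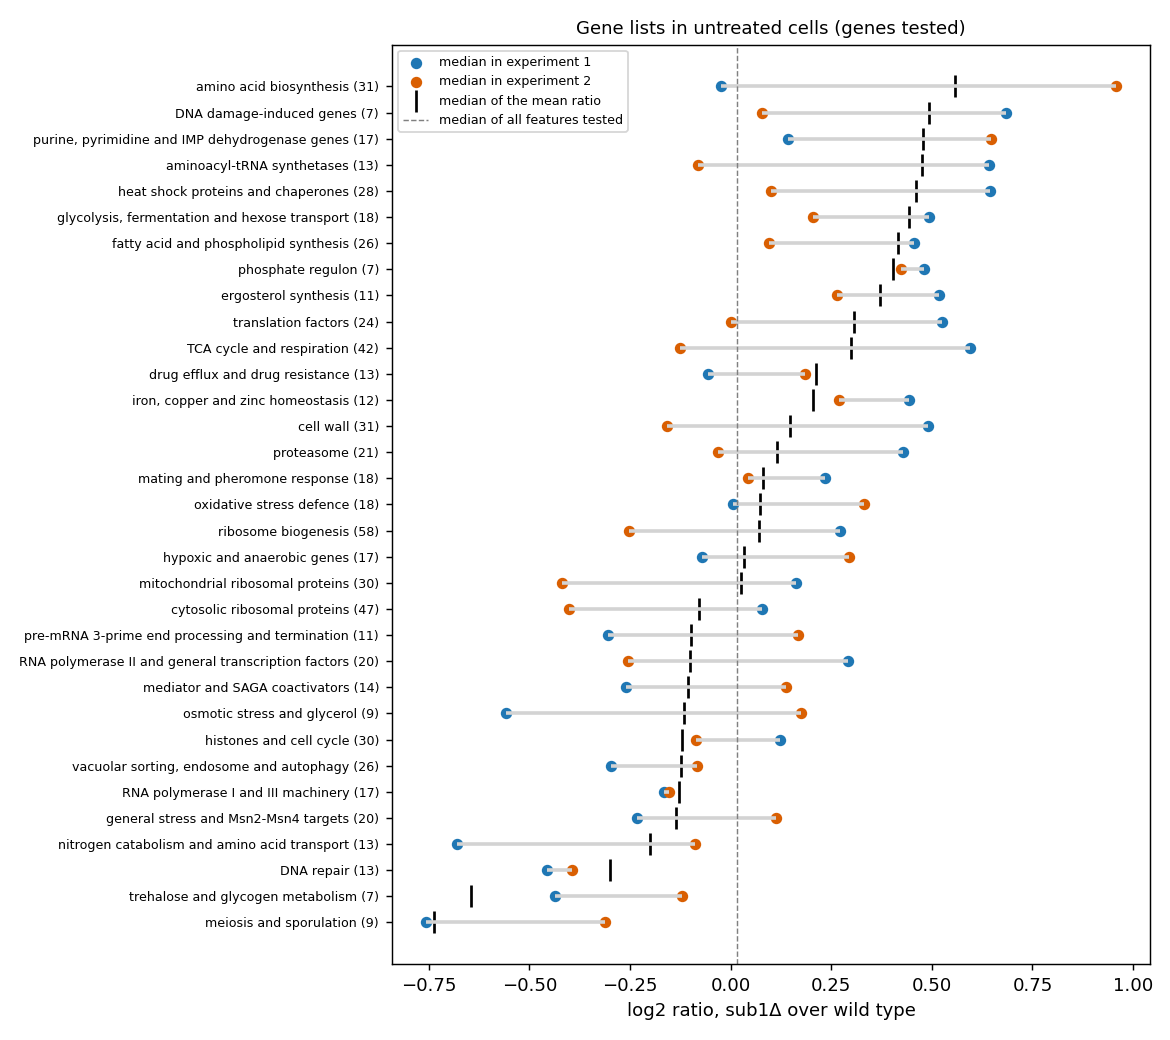
Median log2 ratio of sub1Δ over wild type for the 33 lists with at least 5 genes tested (number in brackets), in experiment 1 (blue), in experiment 2 (orange) and for the mean ratio (bar), with the median of all tested features as a dashed line. Amino acid biosynthesis is highest by its mean (0.56) with its experiments far apart (-0.02 and 0.96), and meiosis and sporulation is lowest (-0.74), but with all swaps taken as already turned they are at -0.25 and 0.77.

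Genes of the remaining lists had medians between -0.20 and 0.40. Phosphate regulon genes were at 0.40 (7 tested, 4 above 0 in both experiments and 0 below in both) and iron, copper and zinc genes at 0.21 (12 tested, 6 and 0). PHO13, a phosphatase, read 0.37, 1.92, 0.21 and 2.30, with both arrays of sub1Δ in Cy3 the higher. Cell wall genes had a median of 0.15 over 31 genes, and beside BGL2, PIR1 and CHS3 the list held PKC1, the kinase of the cell wall pathway, at -1.91 ± 1.54. Proteasome genes were at 0.11 over 21 genes, and nitrogen catabolism and amino acid transport genes at -0.20 over 13, which became 0.09 with spot blocks centred.

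Ratios do not show levels, so the markers of mating type and the strain markers could be compared only between strains. In all, 4 alpha-specific genes were tested, and SAG1, the alpha-agglutinin, was above 0 on all 4 arrays (0.79 ± 0.07). Its reading with sub1Δ in Cy5 in experiment 1 was only 0.01. The others, MF(ALPHA)1, MF(ALPHA)2 and STE3, had means of 0.42 ± 1.07, 0.27 ± 0.34 and 0.10 ± 0.54, each with arrays of opposite sign. AGA2 and MFA2, which are a-specific, were at -0.77 ± 1.68 and 0.06 ± 0.93. MFA1, also a-specific, read -2.10 and -3.69 in experiment 1 and -1.43 with sub1Δ in Cy5 in experiment 2. It lacked a value on the other array and was not tested. LYS2 and ADE2, auxotrophic markers in strains of this background, were at -0.75 ± 0.88 and 0.74 ± 1.77. None of the tested genes among these passed.

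The untreated ratios were then set beside those after 4NQO (1 µg/µl for 1 h by the labels) in the same strains. The difference, untreated minus 4NQO, passed for 0 of 1654 features (0%) in the shared limma fit, with 226 at an unadjusted p of 0.05 and a smallest adjusted p of 0.188. Of the 12 genes above 0, 5 had both 4NQO means and all 5 were above 0 there too. ANB1 had a mean ratio of 2.03 in untreated cells and 2.02 after 4NQO, and BGL2 of 1.71 in untreated cells and 3.32 after 4NQO. Of the 12 genes below 0, 9 had both 4NQO means, and all 9 were below 0. BLI1 was at -2.15 in untreated cells and -3.56 after 4NQO, and HSP12 was at -2.10 in untreated cells and -0.90 after 4NQO (-1.65 in 4NQO experiment 1 and -0.14 in 4NQO experiment 2). Over all 1654 features 1097 had the same sign in both conditions, and only 644 were above 0 after 4NQO. These genes are to be read against those shares. For the 35 cytosolic ribosomal protein genes with all values, the median was -0.15 in untreated cells and 1.84 after 4NQO. Over all 1654 features it was -0.04 in untreated cells and -0.40 after 4NQO. RPL39 had a mean of -1.01 in untreated cells and 1.48 after 4NQO (difference -2.50; limma adjusted p = 0.295), and its 4NQO mean came from experiment 1 at 2.96, with experiment 2 at 0.01.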

How the data were processed

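The authors deposited log2 ratios of Cy3 over Cy5 for each spot of the 4 untreated and 4 4NQO arrays. Per the labels and the series' design text, arrays were scanned on a GenePix instrument, background was subtracted and LOWESS normalisation (smooth parameter 0.33) was applied; the submitters' processing notes name limma 2.12.0. No source used here states why spots lack a value or whether the authors turned the dye-swapped arrays before depositing them. Intensities and depth were not used here.

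Ratios with sub1Δ in Cy5 were multiplied by -1. Of 6216 spots, 3344 had a single symbol in the platform annotation, 387 had several and 2485 had none; 3343 of the 3344 matched the RefSeq gene table of assembly R64. Spots of a gene were averaged (5999 features; 207 genes had at least 2 spots), and arrays of a swap were averaged where both had a value. In the 68 tested genes whose spots could be compared, 34 had the same sign in all spots, and the median gap was 0.57. Between the first 2 spots of these genes the mean ratios correlated with a Pearson r of 0.16. SEM1, DAL80, SLM3 and REI1 have several spots but were not among the 68. Their values on different arrays can therefore come from different spots. The limma 3.58.1 fit (R 4.3.3) used the 4 dye-swap means of both conditions, with a coefficient for each condition, 2-sided moderated tests and Benjamini-Hochberg adjustment over all features tested (threshold 0.05). The fit was tested on simulated data with the same normal spread for all features of a condition and no dye or position effect. That test therefore does not cover the dye part, the position shift or the extreme readings of these arrays. A feature was tested where both untreated means existed; where a 4NQO mean was missing, its own spread came from the untreated experiments. The fit of untreated experiments alone was an alternative. The experiment number was not used as a block, since the same number in both conditions is not stated to mark a shared culture.

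Genes were named by rule: the 12 of smallest p in each direction with the same sign on all 4 untreated arrays, all named genes passing with untreated experiments alone, up to 5 members of each list by smallest p, SUB1 with its 3 neighbours on either side, and the strain markers. The members and lists were chosen with earlier results of these data known. Alternatives covered normalisation, spot position, samples in the fit, dye direction and moderation. Coordinates are left out because the labels name no genome build.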

Additional observations from a re-analysis of the deposited data

Results flagged for a closer look

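GRE1, the hydrophilin made under osmotic stress, read 3.34 on the swapped array of untreated experiment 2, far from its other 3 untreated arrays at 1.12, 0.96 and 1.04. The gap to the nearest array was 0.932 of the whole range, above Dixon's 95% critical value for 4 arrays. It was the 1 feature so marked among the 37 named features checked. Among independent readings chance marks about 1 in 20 groups. The arrays here are dye-swap pairs of the same RNA, so that rate need not hold. The cause was not tested.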

How the results depend on the processing

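The number of untreated features passing (1 of 3457) moved with the processing. The limma fit of untreated experiments alone gave 42, arrays centred and scaled to a common spread 25, spot blocks centred 3, spots kept apart 8 and the swapped array of untreated experiment 2 taken as already turned 9. It was 0 with array medians centred (also with untreated experiments alone), with a single array of a swap allowed, on features of all 8 arrays, with the 4 arrays as replicates, with robust moderation and with spot positions centred. Leaving out 1 experiment left a single experiment in its condition, so the spread then came from the other condition alone. Chosen after seeing the data, spot positions centred with untreated experiments alone gave 21. All swaps taken as turned, and spot blocks centred with untreated experiments alone, each gave 1. The prior degrees of freedom that limma estimated ranged from 3.54 to infinity over these settings, and the cause was not tested.

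If all swaps were already turned, with the shared fit or untreated experiments alone, the log2 ratios of these features changed sign: ANB1 -0.48, GRE1 -0.53, BGL2 -0.43, SSC1 -0.92, PMT4 -0.23, WTM1 -0.53, PIR1 -0.32, RPL8B -0.68, RBL2 -0.89, YHR022C 0.25, YGL260W 0.58, SHE3 1.62, TDA8 0.47, PUL4 0.36, CHS3 0.27, MPS2 0.82, REI1 0.74, SEM1 3.58, YIL060W 3.08, CUS2 1.26, PHS1 3.30, ATG5 2.29, DAL80 4.30, NEW1 1.42, VAM10 1.63 and 46.1.2 7.14. If the swap of untreated experiment 2 alone was turned, GRE1 was -0.054, SHE3 0.77, PHS1 0.41, ATG5 1.15, DAL80 3.23 and 46.1.2 0.091. Without untreated experiment 1, NEW1 was 0.43. The cause was not tested. Under the other settings the 37 named features kept their direction wherever they could be tested.

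The difference between conditions had 0 features passing with arrays centred and with the experiment number as a replicate block (0 of 1654, 156 at an unadjusted p of 0.05), which changed no call. Deviations of same-numbered experiments from their condition means correlated with r = 0.10 over 1654 features.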
